A study of Mus musculus with 9 samples.

Results

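The 10 genes described here encode receptors for neuropeptides in dorsal root ganglia (DRG): Cckbr and Cckar (cholecystokinin), Npy1r and Npy2r (neuropeptide Y), Galr1 and Galr2 (galanin), Tacr1 (substance P), Vipr1 and Vipr2 (vasoactive intestinal peptide, VIP) and Adcyap1r1 (pituitary adenylate cyclase-activating polypeptide, PACAP). The list was drawn up around Cckbr, selected on the difference between injured and uninjured arrays in these same data, so that the injury differences of its members are given as a description, and calls among them are counted only to set them beside the share of all probes. Probes were found by gene name or RefSeq identifier, which gave 15 probes among the 41174 on the arrays. Of these, 11 probes of 9 genes were above background in the DRG channel on at least 4 arrays and entered the fit, whereas 4 probes did not (Galr1 A_51_P299444, Tacr1 A_52_P149545 and both probes of Vipr2).

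The study profiled DRG RNA of adult mice that carried no Cre (cre.neg) and wild-type Jun (jun.wt), with 5 injured and 4 uninjured L3/L4 DRG samples. According to the labels and the methods, injured DRG were taken 3 days after transection of the sciatic nerve, while the results text states an earlier time and a legend states nerve crush. The methods give L3/L4 for these ganglia, whereas the results text and a supplementary legend give L4. The methods name contralateral uninjured DRG as controls for nerve crush samples used in other assays and do not say whether this holds for the arrays, and the labels identify no animals, so that p-values measure the spread between these samples, which may be partly technical. Each sample was labelled with Cy5 and hybridised with a Cy3-labelled universal mouse reference RNA (Stratagene) on a 2-colour Agilent array without dye swap. Each value is the log2 of the Cy5 to Cy3 ratio of a probe, after correction for background and normalization of the array. The 9 arrays lay on 3 slides: slide 1 held 3 uninjured arrays, slide 2 held 1 uninjured and 3 injured arrays, and slide 3 held 2 injured arrays. Median Cy5 brightness lay between 156 and 238, lowest on injured 5, which also had the lowest correlation with the median of its group (0.976). Atf3, a transcription factor switched on in axotomized neurons, was 5.14 (SE 0.069, limma adjusted p = 2.30e-11) higher in injured DRG, and Sprr1a, another axotomy marker, was 4.99 (SE 0.10, limma adjusted p = 1.16e-09) higher. Gap43, a growth cone protein, was 0.62 (SE 0.20, limma adjusted p = 0.0467) higher, with overlapping groups. Of 14 sensory neuron markers, 12 were tested and 12 were above the reference in uninjured DRG, as were 43.8% of all probes (Trpv1 and Mrgprd were not analysed here). In injured DRG, 2 of these 12 fell (Isl1 by 0.49 and Scn9a by 0.54, limma adjusted p of 0.000262 and 0.00505), where 13.6% of all genes were lower. Of 6 satellite glia markers 1 rose (Glul by 0.78, limma adjusted p = 0.000136), where 11.2% of all genes were higher. Of 7 macrophage markers, 2 rose (Aif1 and Cd14), beside the same 11.2%. As a log2 difference from the uninjured mean, not from the reference, the mean of the list lay between −0.36 and 0.29 on uninjured arrays. On injured arrays it lay between 0.092 and 0.99. On the same scale, relative to uninjured DRG, the mean of 6 muscle markers reached 3.67 on injured 4. That of the red blood cell markers reached 1.12 on injured 5. Injured 2 was raised for both cell types as well. There the log2 ratio to the reference was 0.55 for the muscle gene Myl1, against an uninjured mean of −3.53. For the red blood cell gene Alas2 it was 4.17, against 2.40. The part of these cells in the receptor values was not tested.

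Neuropeptides are released from dense-core vesicles and act on G protein-coupled receptors, often at a distance from the release site. In sensory ganglia the receptors sit on neuronal cell bodies, on central and peripheral terminals and on non-neuronal cells, and they adjust excitability and transmitter release. CCK-B, NK1 and galanin type 2 receptors signal mainly through Gq and phospholipase C, neuropeptide Y and galanin type 1 receptors through Gi/o, and VIP and PACAP receptors mainly through Gs and adenylyl cyclase.

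The promoters of Cckbr and Npy1r are shown because these were the receptors whose probes were higher in injured DRG with no overlap between groups. They are the 250 bases before the RefSeq start site on build GRCm38.p6, at chr7:105425481-105425730 (plus strand) for Cckbr and chr8:66697172-66697421 (plus strand) for Npy1r, written 5′ to 3′. Both strands were searched for the AP-1 motif TGANTCA, the cAMP response element TGACGTCA and the ATF4 composite motif TGATGNAA, and matches are in capitals.
Cckbr: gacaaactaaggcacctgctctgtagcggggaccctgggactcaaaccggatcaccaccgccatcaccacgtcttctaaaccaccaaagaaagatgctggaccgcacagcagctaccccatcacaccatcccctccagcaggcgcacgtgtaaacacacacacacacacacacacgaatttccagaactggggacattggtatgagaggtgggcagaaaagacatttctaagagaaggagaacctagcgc
Npy1r: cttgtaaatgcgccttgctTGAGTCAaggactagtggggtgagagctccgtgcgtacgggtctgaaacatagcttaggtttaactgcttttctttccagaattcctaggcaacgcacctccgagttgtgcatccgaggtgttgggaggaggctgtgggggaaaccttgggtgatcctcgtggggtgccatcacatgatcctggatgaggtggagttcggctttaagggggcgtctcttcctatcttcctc
The Npy1r window held 1 AP-1 match, and these letters were not in the Cckbr window. Across 32851 mouse promoters of the same length, 6.75% held the AP-1 motif, 1.55% the cAMP response element and 3.45% the ATF4 composite motif. Motif matches were read for 8 of the 10 receptor genes, and not for Galr1 and Cckar. Among these 8, Npy1r was the only 1 with a match to any of the 3 motifs. A match is a description of the sequence and was not tested for binding.

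Cckbr, the CCK-B receptor for cholecystokinin and gastrin, had the largest injury difference of the 15 probes. On probe A_52_P596375 the log2 ratio was 0.39, 0.15, 0.11 and 0.028 on uninjured 1 to 4, and 3.84, 4.15, 3.80, 3.97 and 3.57 on injured 1 to 5. Every injured array thus lay far above every uninjured array. The group means were 0.17 ± 0.16 (SD, n = 4) and 3.87 ± 0.22 (SD, n = 5), a difference of 3.70 (SE 0.11), or 13.0-fold. Before normalization the Cy5 brightness of this spot lay between 74.9 and 102 on uninjured arrays, where local background was between 49 and 57, and between 1116 and 3022 on injured arrays. It was well above background on 3 of 4 uninjured and on 5 of 5 injured arrays, so the uninjured level lay close to the detection limit. The Cy3 channel moved as well, although it held the same reference RNA on every array: it was well above background on 2 of 4 uninjured and 5 of 5 injured arrays and, normalized, was 0.69 higher on injured arrays. In the Cy5 channel alone the difference was 4.39. What moved Cy3 was not tested.

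**Figure D1:**
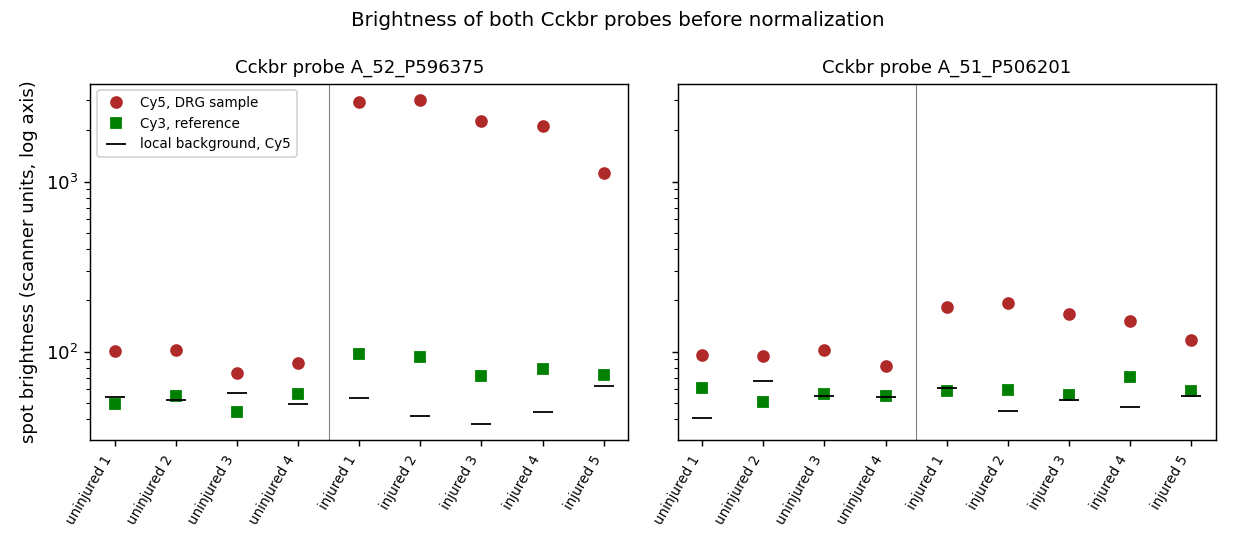
Spot brightness in scanner units (log axis) of both Cckbr probes on each of the 9 arrays, with Cy5 (DRG sample) as circles, Cy3 (reference) as squares and local Cy5 background as dashes. On A_52_P596375 the 5 injured arrays lie between 1116 and 3022 in Cy5 and the 4 uninjured arrays between 74.9 and 102, while on A_51_P506201 the injured arrays reach 192.

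The other Cckbr probe, A_51_P506201, gave the same direction with a far smaller size. Its log2 ratio was 0.18, 0.12, 0.15 and 0.075 on uninjured 1 to 4 and 0.66, 0.81, 0.50, 0.45 and 0.42 on injured 1 to 5. The groups did not overlap here either, and the difference was 0.44 (SE 0.084), or 1.36-fold. The probes differed by 3.26 on the log2 scale in their estimate of the injury difference. In mm7, the build of the deposited coordinates, A_52_P596375 lies at chr7:101492488-101492547 and A_51_P506201 at chr7:101490234-101490453, with starts 2254 bases apart, and the exons they match were not analysed here. Among the injured arrays, injured 2 was the highest and injured 5 the lowest on both probes, and Pearson's r between them over the 9 arrays was 0.91, points that share the difference between groups. Cy5 brightness of A_51_P506201 lay between 82.8 and 102 on uninjured and between 117 and 192 on injured arrays, and its difference lay between 0.34 (all spots kept) and 1.15 (Agilent's own ratio) over the processing settings. With slide as a block the differences were 0.45 on this probe and 3.46 on A_52_P596375.

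Cckar, the CCK-A receptor, was measured by probe A_51_P307741. Its log2 ratio was 3.69, 3.44, 3.51 and 3.56 on uninjured 1 to 4 and 3.69, 3.72, 3.40, 3.55 and 4.06 on injured 1 to 5. The groups overlapped over most of their range, and the difference of 0.13 (SE 0.12) changed sign with a background offset of 0 (−0.17), with all spots kept (−0.075) and in Agilent's own ratio (−0.15).

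**Figure D2:**
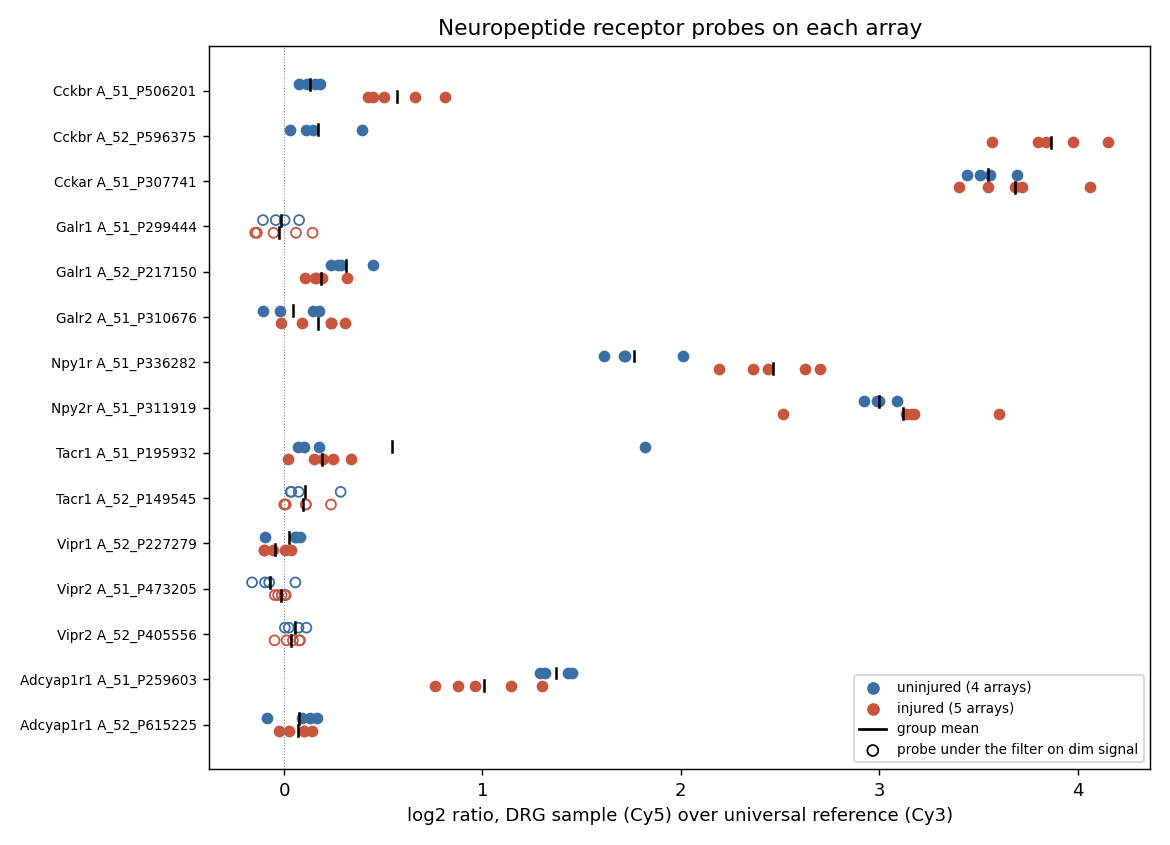
Log2 ratio of DRG sample (Cy5) over universal reference (Cy3) for the 15 receptor probes, with 4 uninjured arrays in blue, 5 injured arrays in red, the group mean as a black bar and open circles for the 4 probes under the filter on dim signal. Injured and uninjured points are fully apart for both Cckbr probes and Npy1r, and uninjured 4 stands alone at 1.82 for Tacr1.

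Npy1r, the Y1 receptor for neuropeptide Y and peptide YY, was the other receptor that was higher in injured DRG. Probe A_51_P336282 read 1.71, 1.72, 2.01 and 1.61 on uninjured 1 to 4, and 2.63, 2.70, 2.19, 2.36 and 2.44 on injured 1 to 5. The lowest injured array (injured 3) lay above the highest uninjured array (uninjured 3). The means were 1.76 ± 0.17 (SD, n = 4) and 2.46 ± 0.20 (SD, n = 5), a difference of 0.70 (SE 0.11), or 1.62-fold. Within slide 2 the difference was 0.87, and over all processing settings it lay between 0.54 and 0.87. The Cy3 channel differed by 0.098 for this probe.

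Npy2r, the Y2 receptor that acts as an autoreceptor on nerve terminals, read 3.00, 3.09, 2.99 and 2.92 on uninjured 1 to 4 and 3.60, 3.17, 3.16, 3.14 and 2.52 on injured 1 to 5. Uninjured arrays were close together (SD 0.070, n = 4), whereas injured arrays spread on both sides of them (SD 0.39, n = 5), with injured 1 highest and injured 5 lowest. The difference was 0.12 (SE 0.17). Without injured 1 it was −0.0030 and without injured 5 it was 0.27.

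Adcyap1r1, the PAC1 receptor selective for PACAP, was lower in injured DRG on 1 of its 2 probes. On A_51_P259603 the log2 ratio was 1.45, 1.31, 1.43 and 1.29 on uninjured 1 to 4 and 1.14, 0.87, 0.76, 0.96 and 1.30 on injured 1 to 5. Injured 5 lay just above uninjured 4, so the groups overlapped by that array, and the remaining injured arrays were below all uninjured arrays. The difference was −0.36 (SE 0.10), or 1.29-fold lower, and −0.35 within slide 2. Over the processing settings it lay between −0.53 and −0.30. The other probe of the gene, A_52_P615225, read between −0.086 and 0.17 on uninjured and between −0.023 and 0.14 on injured arrays, a difference of −0.0065 (SE 0.068). The probes therefore did not share the decrease, and Pearson's r between them was 0.30 over 9 arrays.

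Vipr1, the VPAC1 receptor that VIP and PACAP share, read between −0.095 and 0.082 on uninjured and between −0.10 and 0.033 on injured arrays. The difference of −0.071 (SE 0.061) was about the size of the SD within groups (0.0707). For Vipr2, the VPAC2 receptor, Cy5 was well above background on 0 of 9 arrays for A_51_P473205 and A_52_P405556 alike, with differences of 0.053 and −0.020. Those spots had Cy5 brightness between 46.6 and 66.6, so no level of Vipr2 was measurable at this signal.

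Galr2, the Gq-coupled galanin receptor, read 0.17, −0.020, −0.11 and 0.14 on uninjured 1 to 4 and 0.24, 0.31, −0.015, 0.24 and 0.088 on injured 1 to 5. The groups overlapped, with a difference of 0.12 (SE 0.086). Galr1, the Gi-coupled galanin receptor, read between 0.24 and 0.45 on uninjured and between 0.11 and 0.32 on injured arrays on A_52_P217150, a difference of −0.12 (SE 0.067). This spot was well above background in Cy5 on 4 of 4 uninjured and 1 of 5 injured arrays and was not well above background in Cy3 on any array, and its difference reached −1.68 in Agilent's own ratio. The other Galr1 probe, A_51_P299444, was above background in Cy5 on 0 of 9 arrays and differed by −0.0090.

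Tacr1, the NK1 receptor for substance P, depended on a lone array. Probe A_51_P195932 read 0.099, 0.070, 0.18 and 1.82 on uninjured 1 to 4 and 0.25, 0.20, 0.019, 0.15 and 0.34 on injured 1 to 5. All arrays but uninjured 4 lay within 0.019 to 0.34, and Cy5 brightness on uninjured 4 was 414 against a median of 110 in its group. The difference was −0.35 (SE 0.31) with uninjured 4 and 0.075 without it. The second probe, A_52_P149545, was above background in Cy5 on 1 of 4 uninjured and 0 of 5 injured arrays. There too uninjured 4 read highest, at 0.29 against 0.033 to 0.074 on the other uninjured arrays, but injured 4 read 0.24. Pearson's r between the probes was 0.72 over 9 arrays, which include uninjured 4, the highest array on both probes.

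Over the 11 probes that passed the filter, 4 were called at a limma adjusted p under 0.05, of which 3 were higher (both Cckbr probes and Npy1r) and 1 was lower (Adcyap1r1 A_51_P259603). Over all 31192 probes tested, 23.5% were called, 10.5% higher and 13% lower. In 3 of the 11 probes the groups did not overlap, against 22.6% of all probes, and in these 3 the injured arrays were the higher ones, as in 10.1% of all probes. Because this contrast chose the list, these counts are a description. In DRG, a mixed tissue, a change in the number of cells of a type and a change in RNA per cell cannot be told apart. Of the 5 genes with 2 probes, both probes passed the filter for Cckbr, whose probes were both higher and differed by 3.26, and for Adcyap1r1, whose probes differed by 0.36. For Galr1, Tacr1 and Vipr2 at least 1 probe was under the filter, so that agreement between probes could not be read.

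**Figure D3:**
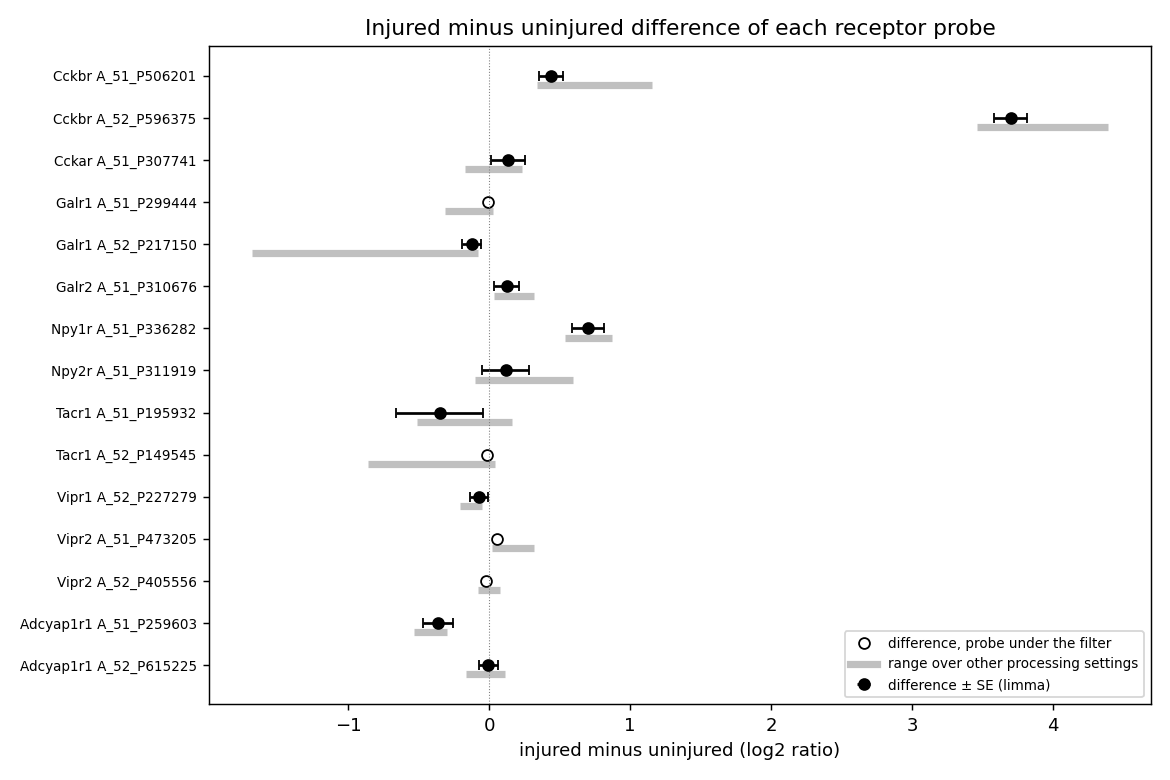
Injured minus uninjured log2 ratio of the 15 receptor probes, with SE bars from limma (open circles for the 4 probes under the filter, without SE) and a grey bar for the range over the other processing settings and left-out arrays. Cckbr A_52_P596375 lies at 3.70, Npy1r at 0.70 and Cckbr A_51_P506201 at 0.44, and the grey bars of these 3 probes stay above 0.

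The level in uninjured DRG relative to the universal reference, a pool of RNA from mouse cell lines, was not used to choose the list and was tested in the same fit. The spread behind its SE and p-values was estimated over all 9 arrays, injured ones included. Sample and dye cannot be told apart in this comparison, since DRG was Cy5 on all arrays. Of the 11 probes, 6 were called above the reference, beside 43.8% of all probes tested, of which 81.5% differed from the reference and 37.7% were below it. Cckar was 3.55 (SE 0.088, limma adjusted p = 7.43e-12) above the reference on the log2 scale, with Cy3 well above background on 2 of 4 uninjured arrays. Npy2r was 3.00 (SE 0.13, limma adjusted p = 6.71e-10) above, and since its reference signal was not well above background this reads as at least 8.00-fold. Npy1r was 1.76 (SE 0.085, limma adjusted p = 2.51e-09) above, and Adcyap1r1 A_51_P259603 was 1.37 (SE 0.078, limma adjusted p = 1.13e-08) above. These 4 receptor probes were called above the reference in every setting in which they were tested.

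Galr1 A_52_P217150, also among the 6, was 0.31 above the reference (SE 0.050), read as at least 1.24-fold because its Cy3 signal was not well above background. It reached the filter mainly through uninjured DRG (4 of 4 arrays, against 1 of 5 injured arrays), so its value is a description. Tacr1 A_51_P195932 passed narrowly at 0.54 (SE 0.23, limma adjusted p = 0.0490) and, without uninjured 4, was 0.12 above with an adjusted p of 0.118 by limma. Its SD was 0.85 on the 4 uninjured and 0.12 on the 5 injured arrays, and both entered this SE. Both Cckbr probes lay within 0.17 of the reference in uninjured DRG and were not called (limma adjusted p of 0.0721 and 0.0891). Galr2 (0.047), Vipr1 (0.026) and Adcyap1r1 A_52_P615225 (0.075) were not called either. The Cckbr values come from dim spots: on A_52_P596375 Cy5 was well above background on 3 and Cy3 on 2 of 4 uninjured arrays. Its value was 1.06 in Agilent's ratio, and each Cckbr probe was called above the reference in 3 settings.

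The ligands of the same receptors were a separate list of 12 genes, of which 10 passed the filter. By the brightest probe per gene, 3 of the 10 rose and the other 7 were not called, against 24.9% of all genes called, 11.2% higher and 13.6% lower. Npy, the ligand of Npy1r and Npy2r, read between 0.24 and 1.57 on uninjured arrays (highest on uninjured 1) and between 3.88 and 4.18 on injured arrays. Its difference was 3.24 (SE 0.22, limma adjusted p = 3.30e-06), and 2.50 with slide as a block. Gal, the ligand of Galr1 and Galr2, rose from between 3.10 and 3.30 to between 4.78 and 5.12, by 1.76 (SE 0.081, limma adjusted p = 2.46e-07). Adcyap1, which encodes PACAP, rose from between 4.34 and 4.67 to between 4.79 and 5.52, by 0.58 (SE 0.13, limma adjusted p = 0.00980), and was not called with slide as a block (limma adjusted p = 0.381), with a background offset of 0 or in Agilent's ratio.

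The reference channel was higher on injured arrays for these 3 ligand probes too, by 1.12 for Npy, 1.73 for Gal and 2.20 for Adcyap1. In Cy5 alone their differences were 4.36, 3.49 and 2.78. The ratio therefore gave smaller values than the DRG channel, and the cause was not tested. Cck, the ligand of both cholecystokinin receptors, was measured at 0.13 (SE 0.086, limma adjusted p = 0.315), and its other passing probe at −0.051. Tac1, the precursor of substance P, was at −0.15 (SE 0.10, limma adjusted p = 0.325), and at −0.59 in Cy5 alone. Tac2 was at 0.18 (limma adjusted p = 0.145), and Gast, Galp, Pyy and Ppy lay between −0.068 and 0.028. Vip was well above background in Cy5 on 0 of 9 arrays and Tac4 on 1. The median difference of the 10 ligands was 0.080, against 0.0019 over all genes.

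**Figure D4:**
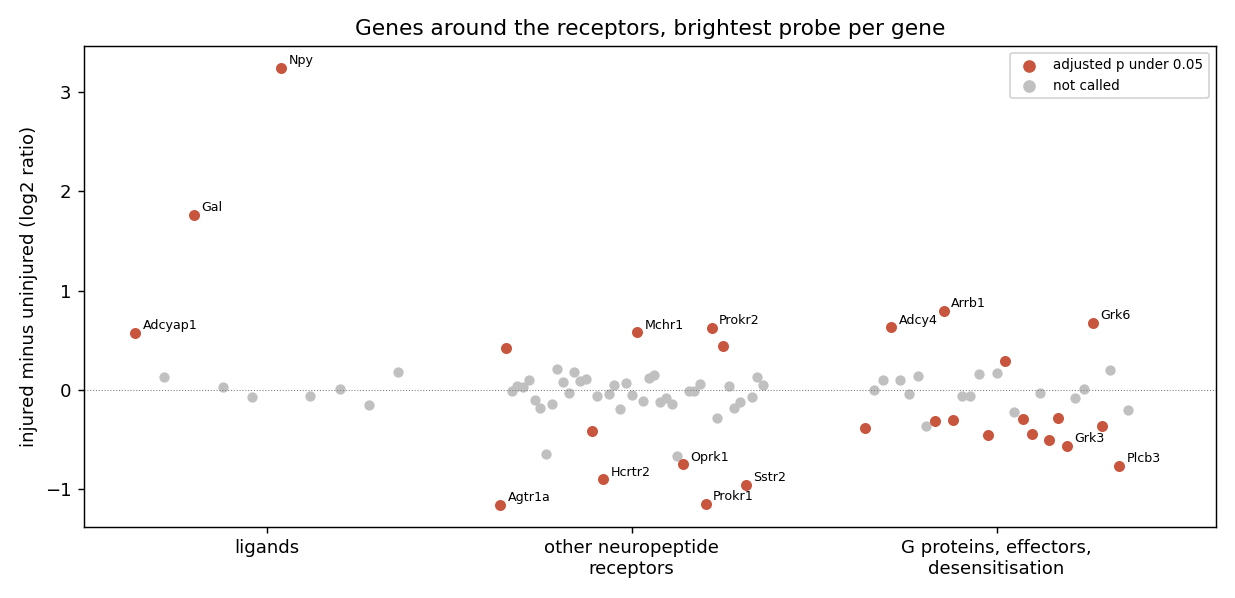
Injured minus uninjured log2 ratio of 10 ligands, 47 other neuropeptide receptors and 31 G protein, effector and desensitisation genes (brightest probe per gene), red where the limma adjusted p was under 0.05. Npy and Gal stand above the rest at 3.24 and 1.76, the receptors reach, by that probe, from −1.16 (Agtr1a) to 0.62 (Prokr2), and 11 of the 31 effector genes lie below 0 in red.

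A list of 67 other neuropeptide receptors placed the members among their relatives. Of the 47 that passed the filter, 4 rose (8.51%) and 6 fell (12.8%) by the probe with the highest mean brightness over both channels, shares near those of all genes. Other probes of genes not called in this way fell: Oprl1, the nociceptin receptor, by 1.57 on A_52_P99678 (SE 0.065, limma adjusted p = 1.26e-07) against −0.0091 on the probe used, and Oprm1, the mu opioid receptor, by 0.44 and 0.36 (limma adjusted p of 0.00116 and 0.00104) against −0.013. By the probe used, the largest rises were those of Prokr2, a prokineticin receptor (0.62, SE 0.16, limma adjusted p = 0.0182), Mchr1, the melanin-concentrating hormone receptor (0.58, SE 0.13, limma adjusted p = 0.00755), and the vasopressin receptor Avpr1a (0.42, limma adjusted p = 0.0157). Prokr2 was called in 13 of 19 other settings and was not called without uninjured 3 (or uninjured 4), with an offset of 0, with all spots kept, in Agilent's ratio or with slide as a block. Qrfpr, the other of the 4, was well above background in Cy5 on 0 of 4 uninjured and 4 of 5 injured arrays and so passed the filter only through injured DRG. In Cy5 it was at least 1.46-fold higher there, and it was called in 11 of 19 other settings. By the probe used, the largest decreases were those of the angiotensin receptor Agtr1a (−1.16, SE 0.13, limma adjusted p = 0.000150), Prokr1 (−1.15, SE 0.11, limma adjusted p = 4.80e-05), the somatostatin receptor Sstr2 (−0.96, SE 0.088, limma adjusted p = 3.37e-05) and the orexin receptor Hcrtr2 (−0.90, SE 0.11, limma adjusted p = 0.000211). With slide as a block most, but not all, calls in the list of other receptors were lost, as were most calls over all probes. The differences were then −1.35 for Agtr1a, −1.23 for Prokr1, −0.98 for Sstr2, −0.80 for Hcrtr2 and −0.84 for Oprk1, the kappa opioid receptor. For Prokr2, Mchr1 and Avpr1a they were 0.42, 0.74 and 0.42.

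Signalling genes downstream of the receptors were 31 in number and all passed the filter. Of these, 4 rose (12.9%) and 11 fell (35.5%), beside 11.2% and 13.6% of all genes, with a median of −0.067. Among the Gq and phospholipase C genes that Cckbr uses, Plcb3 fell by 0.77 (SE 0.12, limma adjusted p = 0.000881), Gnaq by 0.44 (limma adjusted p = 0.0128) and Plcb1 by 0.37 (limma adjusted p = 0.000745), while Gna11 (−0.059), Gna14 (−0.067), Gna15 (0.16), Plcb2 (0.20) and Plcb4 (−0.20) were not called. Among the Gi/o family subunits that the Y1 receptor uses or that are close to them, Gnaz fell by 0.51 (limma adjusted p = 0.000961), Gnai1 by 0.46 (limma adjusted p = 0.000818) and Gnao1 by 0.30 (limma adjusted p = 0.00518), Gnai3 rose by 0.29 (limma adjusted p = 0.0271), and Gnai2 (0.17) was not called. Probes of a gene did not always share a call: other probes of Gnas fell by 0.54 and 0.41 and another of Gnal by 0.31 where the probe used was not called, and other probes of Adcy1, Gnai1, Gnao1, Gnaz, Grk3 and Plcb1 were not called.

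Of the kinases and arrestins that desensitise G protein-coupled receptors, Arrb1 rose by 0.80 (SE 0.076, limma adjusted p = 4.21e-05) and Grk6 by 0.67 (SE 0.073, limma adjusted p = 0.000108), whereas Grk3 fell by 0.57 (limma adjusted p = 0.00255), Arrb2 by 0.31 (limma adjusted p = 0.00584) and Grk2 by 0.28 (limma adjusted p = 0.00748). Of the adenylyl cyclases, Adcy4 rose by 0.63 (limma adjusted p = 0.0137) and Adcy1 and Adcy9 fell by 0.38 and 0.32 (limma adjusted p of 0.0205 and 0.0130). With slide as a block most of the 15 calls were lost, as were most calls over all probes. That comparison rests on the 4 arrays of slide 2. The differences there were 0.95 for Arrb1, 0.62 for Grk6, −0.81 for Grk3, −0.31 for Arrb2 and −0.37 for Grk2. For Adcy4, Adcy1 and Adcy9 they were 0.84, −0.50 and −0.30.

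The genes whose pattern over the 9 arrays was most like Cckbr A_52_P596375, among 16498 genes, were Plaur (Pearson's r = 0.999), Tnfrsf12a (0.999), Ucn (0.998), Flrt3 (0.998) and Sema6a (0.998). All 9 points share the difference between groups, and 927 genes had r above 0.9. Over the 5 injured arrays alone, r of the named genes lay between 0.75 (Flrt3) and 0.98 (Plaur). Plaur, the urokinase receptor, was 2.47 higher in injured DRG, and Flrt3, a guidance protein, 3.91 higher. Ucn encodes urocortin, itself a neuropeptide, and read between 0.077 and 0.30 on uninjured and between 3.01 and 3.62 on injured arrays. Its Cy5 and its Cy3 were each well above background on 3 of 4 uninjured arrays. Its uninjured level, like that of Cckbr, thus lay close to the detection limit.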

How the data were processed

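RNA of 9 mouse DRG samples was measured on 2-colour Agilent arrays. The deposited scanner intensities give the mean brightness of each spot and the median of its surround in both channels, and per the file headers the log10 ratios beside them were made by Agilent Feature Extraction with its own background and dye correction. The authors' processed values, made with limma per the labels, are log2 ratios of Cy5 over Cy3, a unit found by comparison with the scanner files. Flags for background, saturation and non-uniform spots were read from the deposited scanner files.

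Processing used limma 3.58.1 under R 4.3.3: background correction by normexp with offset 50, within-array loess, the mean of repeated spots, and a filter for Cy5 well above background on at least 4 arrays. Between 2 and 26 spots per array of non-uniform feature or background were left out, a choice that followed from an earlier processing of these data in which such spots had pulled off the background fit of injured 2. Slopes against the authors' values lay between 1.005 and 1.014. Of 41174 probes, 22951 were named by accession, 6659 by symbol, 3109 by an older name, and 8455 kept the name in the file. Single-channel values used loess and Aquantile.

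Injured and uninjured groups, and uninjured DRG against the reference, were compared by limma (moderated statistics, Benjamini-Hochberg adjustment), over all 31192 probes, at an adjusted p under 0.05. The procedure was tested on simulated data with independent noise and no slide effect. That test cannot show how slide affects the calls. The members, gene lists, named genes and tests were chosen with earlier results of these data known. Named were all members and ligands, up to 4 largest called rises and falls of each other list (further effector genes, Oprk1, Oprl1, Oprm1 and called markers were named after their values were seen), the 5 genes most correlated with Cckbr, and Atf3, Sprr1a and Gap43. A fold called "at least" sets the brighter mean against the mean of the higher of the lowest signal well above background and the dim probe's own signal. The number of arrays limits the precision. Promoters are from RefSeq. Plots used matplotlib 3.10.9 under Python 3.11.15.

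Alternatives were other background corrections and normalizations, the authors' values, other filters, slide as a block, the mean of a gene's probes, and each array left out in turn. The optic nerve, culture and sequencing experiments of the study were not analysed here.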

Additional observations from a re-analysis of the deposited data

Results flagged for a closer look

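Single arrays stood apart from their group, by the gap to the nearest array relative to the group's range (Dixon's criterion at 95%), in 6 of 50 groups tested over the receptors and their ligands, where chance flags about 1 group in 20. Tacr1 on uninjured 4 read 1.82 on A_51_P195932 and 0.285 on A_52_P149545. Vipr1 on uninjured 2 read −0.0953. Among the ligands, Galp on injured 2 read −0.129, and Pyy read −0.113 on uninjured 3 and 0.0522 on injured 5. Only the Tacr1 array changed the sign of a receptor's injury difference when it was left out, among these receptor arrays: from −0.35 to 0.075 on A_51_P195932 and from −0.014 to 0.045 on A_52_P149545.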

How the results depend on the processing

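Both Cckbr probes, Npy1r and Adcyap1r1 A_51_P259603 kept their direction in every setting that gave them a value. Leaving out each array gave 3 to 4 called receptor probes, where Adcyap1r1 A_51_P259603 was not called without injured 2, injured 3, injured 4, uninjured 1 or uninjured 3. Over all probes, calls then numbered between 5377 (without uninjured 1) and 7481 (without injured 5), against 7340 with all arrays. Because this contrast chose the list, the receptor counts are a description. The count of called probes moved from 7340 to 3523 with median centring and to 1508 with slide as a fixed block, where 1475 of the calls were shared with the 7340 and 55.6% were higher against 44.6%. A fixed block leaves 1 uninjured and 3 injured arrays of slide 2 to carry the comparison. It gave 2 called receptor probes (Cckbr A_52_P596375 and Npy1r) for 4, 4 other receptors for 10 and 3 effector genes for 15. As a random block, slide had a correlation of −0.202 and 10342 probes were called. Agilent's ratio called 5 other receptors, the filter on both channels 4, and Cy5 alone 5 ligands for 3. The ligands added in Cy5 alone were lower in injured DRG: Tac1 by 0.59 and Gast by 0.53. The probes used for Sstr2, Hcrtr2, Grpr, Oprk1, Prokr2 and Qrfpr did not pass the filter on both channels. That filter left 2 receptor probes called against the reference for 6 (Npy1r and Adcyap1r1 A_51_P259603). The probes of Cckar and Npy2r, Galr1 A_52_P217150 and Tacr1 A_51_P195932 did not pass it and were not tested. The share of all probes called against the reference in that setting was not analysed here.

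Differences between injured and uninjured that moved by more than the SD within groups were as follows. For Cckbr A_51_P506201 (0.44) they were 0.59 without background correction, 0.87 with an offset of 0, 1.15 in Agilent's ratio, 0.60 with median centring and 0.68 in Cy5 alone. For Cckbr A_52_P596375 (3.70) they were 4.35 with an offset of 0, 4.39 in Cy5 alone and 3.46 with slide as a block. With an offset of 0 Cckar was at −0.17, Galr1 A_52_P217150 at −0.25, Galr2 at 0.31, Vipr1 at −0.16, Vipr2 A_51_P473205 at 0.32 and Vipr2 A_52_P405556 at −0.081. In Agilent's ratio Cckar was at −0.15, Galr1 at −0.32 (A_51_P299444) and −1.68 (A_52_P217150), Galr2 at 0.32, Npy2r at 0.60, Tacr1 A_52_P149545 at −0.86, Vipr1 at −0.21, Vipr2 A_52_P405556 at 0.056 and Adcyap1r1 A_52_P615225 at −0.16. In Cy5 alone Galr1 A_52_P217150 was at −0.21, Vipr1 at −0.18 and Adcyap1r1 A_52_P615225 at 0.11. Galr1 A_52_P217150 was at −0.24 without background correction, −0.22 with median centring and −0.30 with slide as a block, Vipr2 A_52_P405556 was at 0.075 without background correction, and Cckar was at −0.075 with all spots kept. Most of these spots lay near background, while those of Cckar, Npy2r and, on injured arrays, Cckbr A_52_P596375 were brighter. The cause of each movement was not tested. No paired analysis was possible because the replicate numbers were given in accession order and the labels identify no animals.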
